A study of Sus scrofa with 12 samples.

Results

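The cytochrome P450 genes of subfamilies CYP2B, CYP2C, CYP2J and CYP3A, the xenobiotic receptors PXR (gene NR1I2) and CAR (gene NR1I3), and the reductase POR were followed in liver from Jinhua (JH) and Landrace (LD) pigs. Members were chosen by symbol as CYP2B22, CYP2C32, CYP2C33, CYP2C42, CYP2C91, CYP2J34, CYP3A29, NR1I2, NR1I3 and POR. Of these 10 symbols, 9 matched among the 31694 identifiers of each mRNA table, and NR1I3 was not analysed here. 7 of the 9 had values, and CYP3A29 and POR were listed at 0 in all 6 libraries. JH is a slow growing Chinese breed that deposits much fat, and LD, the control group, is a lean breed. Each breed was represented by 3 uncastrated male pigs at 70 days of age, and no treatment is named for either. Each pig gave 1 mRNA library from a piece of whole liver, so that the values average over all liver cells, and fewer cells of a type cannot be told apart from less RNA per cell.

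Cytochromes P450 are haem enzymes of the endoplasmic reticulum that oxidise drugs, steroids, fatty acids and other lipids. POR passes them electrons from NADPH, and cytochrome b5 can supply an electron as well. CAR and PXR are nuclear receptors which bind DNA with a retinoid X receptor as partner and switch on CYP2B, CYP2C and CYP3A genes when foreign compounds, bile acids or steroids reach the liver. CYP2C and CYP3A enzymes carry much of the drug oxidation of mammalian liver, CYP2B enzymes are classic targets of CAR, and CYP2J enzymes are known for making epoxides of arachidonic acid.

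The libraries held 5744908 to 7914515 reads in genes, recovered from the RPKM values (read numbers scaled to gene length and library total, a level per length), with JH1 the shallowest. Of all identifiers, 38.1% were listed at 0 in every library, and genes that every hepatocyte or every cell uses were among them (APOB, B2M, SDHA and HPRT1, named after their values were seen). A listed 0 is therefore given as such. The liver label was borne out by hepatocyte genes. ALB averaged 29866 RPKM in JH and 47923 RPKM in LD, and the 9 hepatocyte markers found summed to 61248 to 73418 RPKM in JH and 76537 to 90305 RPKM in LD. Between breeds, limma fitted log2(RPKM + 0.1) of 12993 genes, and calls needed an adjusted p (Benjamini-Hochberg) under 0.05 together with an absolute log2 fold change over 1. Fold changes are JH over LD. By this rule 133 genes were higher and 177 lower in JH.

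CYP2B22 was the 1 member called, and it was lower in JH. Of the 7 tested members limma called 0 higher and 1 lower, and it called 1.02% of all tested genes higher, 1.36% lower and 2.39% in either direction. With limma voom on recovered reads, a fit chosen after the data had been seen, CYP2B22 was again the 1 member called, and 1.3% of genes were called higher and 1.86% lower. All JH pigs lay above all LD pigs for CYP2C33 and NR1I2 and below them for CYP2B22, CYP2C42 and CYP2C91, while CYP2C32 and CYP2J34 overlapped. Over all tested genes, the breeds separated with JH above for 10.8% and with JH below for 12.5%. Unadjusted p was below 0.05 for 4 of the 7 members (1 higher, 3 lower) and for 2321 of all tested genes. The members' median log2 fold change was -0.91, with 3 above 0 and 4 below 0, and that of all tested genes was 0.04.

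**Figure D1:**
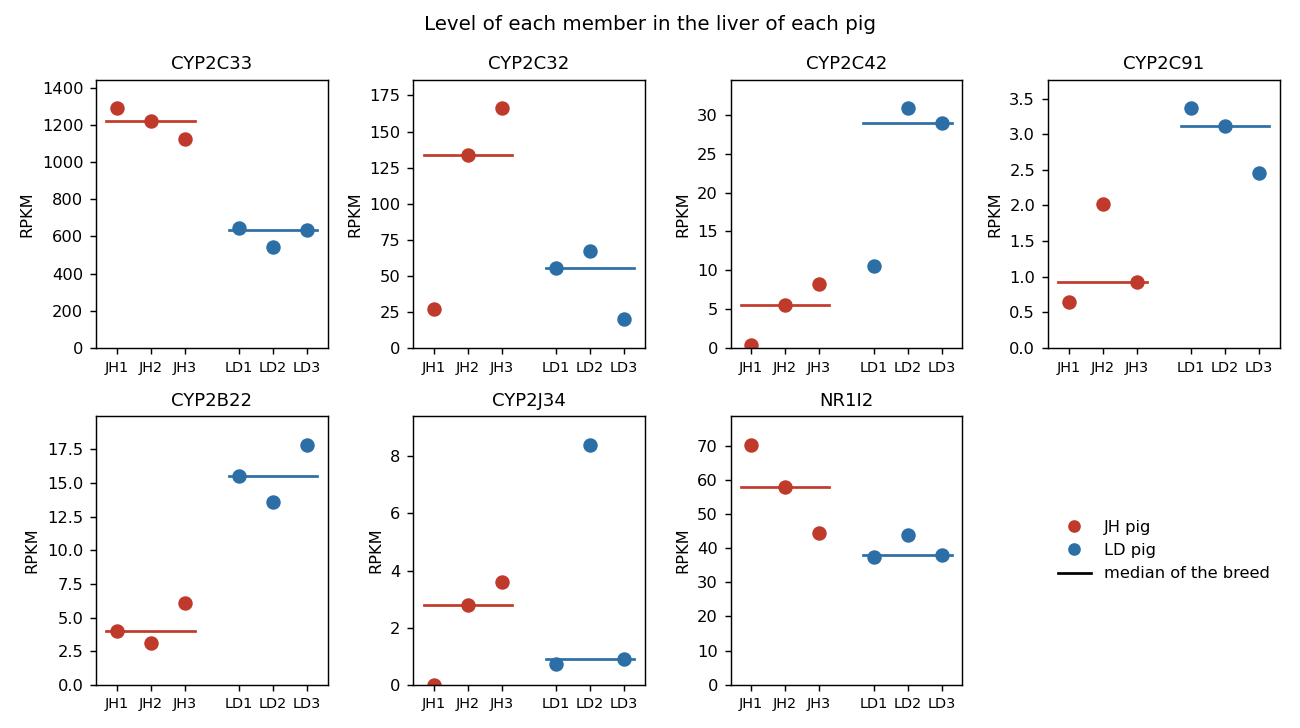
Level in RPKM (vertical axis, each panel with its own linear scale from 0) of the 7 members with values in each of 3 JH (red) and 3 LD (blue) pigs, with a line at the breed median. CYP2C33 ran from 1124 to 1288 in JH and from 545 to 644 in LD, whereas CYP2B22 ran from 3.12 to 6.08 in JH and from 13.6 to 17.8 in LD.

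CYP2B22, the CYP2B gene of the set, was read at 3.98, 3.12 and 6.08 RPKM in JH1, JH2 and JH3 and at 15.5, 13.6 and 17.8 RPKM in LD1, LD2 and LD3. The highest JH pig stood below the lowest LD pig, and neither breed held a pig apart from its group. The means were 4.39 ± 1.52 RPKM in JH and 15.6 ± 2.11 RPKM in LD (SD, n = 3 each), and the values rest on 51, 54 and 105 reads in JH and 246, 239 and 314 reads in LD. The log2 fold change was -1.85 with an SE of 0.29 and a 95% interval of -2.51 to -1.19 (limma, adjusted p = 0.0158), a level 3.61-fold higher in LD. An exact two-sided permutation test of the 6 values gave p = 0.1, the smallest that 3 against 3 pigs allow. The call held without any 1 of the JH pigs. It was lost without LD1 (adjusted p = 0.0875), LD2 (adjusted p = 0.0531) or LD3 (adjusted p = 0.0562 in limma), where the log2 fold change over all 6 such fits ran from -2.11 to -1.64. With voom on the reads it was -1.87 (adjusted p = 0.00738).

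Markers of some other cell types were also lower in JH, whereas those of macrophages and lymphocytes had median log2 fold changes of 0.10 and 0.16. Stellate cell and fibroblast genes were lower in JH for 9 of 9 tested, and 9 of the 10 listed were found. Of the tested, 4 were called, while 1.36% of all tested genes were called lower. The 9 found summed to 80.3 to 102 RPKM in JH and 195 to 392 RPKM in LD. Of the called, COL1A1 and COL3A1 code for fibrillar collagens and had log2 fold changes of -2.77 and -1.75, COL1A2 had -1.78, and LRAT, which stores retinol in stellate cells, had -1.72. The 3 tested erythroid genes were also lower, with HBB, a globin chain, called at -1.39 and the 8 found summing to 92.6 to 125 RPKM in JH and 216 to 399 RPKM in LD. Their part in the CYP2B22 difference was not tested. Leaving out 1 library ended these calls for COL1A1 without LD1 (limma, adjusted p = 0.0506) and for COL3A1 without LD1 or LD2 (adjusted p up to 0.0881). It ended them for COL1A2 without JH1, JH3, LD1 or LD2 (adjusted p up to 0.154 in limma) and for LRAT and HBB without any library but JH3 (adjusted p up to 0.163 and 0.154).

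The genes beside CYP2B22 did not all share its pattern. In the gene order of Sscrofa11.1 (RefSeq), an assembly later than the one the files use, the next gene on the side of CYP2A19 is LOC102165015. It averaged 1.49 RPKM in JH and 6.79 RPKM in LD, with a log2 fold change of -2.20 (limma, adjusted p = 0.0291), and its call too was lost without LD1, LD2 or LD3 (adjusted p = 0.104, 0.0838 and 0.0899). The neighbours on the far side, AXL and HNRNPUL1, had log2 fold changes of -0.10 and -0.15 with overlapping ranges. These neighbours were looked up for position, not for their values.

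Over the 6 libraries, the profiles nearest to CYP2B22, by Euclidean distance of centred log2 values, were those of UGT2B17 at 0.32, PYGO1 at 0.48 and AKR1D1 at 0.51. UGT2B17, a glucuronosyltransferase of steroids, read 86.1, 66.6 and 107 RPKM in JH and 363, 291 and 397 RPKM in LD, with a log2 fold change of -2.03 and an SE of 0.26 (limma, adjusted p = 0.00751, but 0.0518 without LD1). It belongs to a multigene family, so its reads may be shared with its relatives. AKR1D1, the steroid reductase of bile acid synthesis, read 76.2, 52.8 and 78.8 RPKM in JH and 264, 276 and 285 RPKM in LD, with a log2 fold change of -2.01 and an SE of 0.25 (limma, adjusted p = 0.00578), and it was called without any 1 library. PYGO1, a partner of beta-catenin signalling, had -1.60 and was not called (limma, adjusted p = 0.0585). The likeness rests on 6 libraries and describes them only.

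CYP2C33 was the most abundant member in every pig. It read 1288, 1219 and 1124 RPKM in JH1 to JH3 and 644, 545 and 636 RPKM in LD1 to LD3, on 8517 to 18700 reads. The breeds did not overlap, and within each the highest pig exceeded the lowest by a factor of 1.15 in JH and 1.18 in LD. The means were 1210 ± 82.1 and 608 ± 54.7 RPKM (SD, n = 3 each). The log2 fold change of 0.99, with an SE of 0.23 and an interval of 0.48 to 1.51, missed the threshold (limma, adjusted p = 0.0602), and the exact permutation test gave p = 0.1. Leaving out 1 library gave 0.92 to 1.05, and the gene was called only without JH3, at 1.05 (limma, adjusted p = 0.0465). With voom on the reads the adjusted p was 0.0348, with the fold change under the limit.

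CYP2C32 was the next in median level among the cytochrome members, although CYP2C42 exceeded it in LD3, and its breeds overlapped. Its levels were 27, 134 and 166 RPKM in JH1 to JH3 and 55.6, 67.1 and 19.9 RPKM in LD1 to LD3, on 303 to 2504 reads. JH1 stood with the LD pigs, and the other JH pigs lay above them all. The means were 109 ± 72.6 RPKM in JH and 47.6 ± 24.6 RPKM in LD (SD, n = 3 each), and the log2 fold change was 1.00 with an SE of 0.68 and an interval of -0.54 to 2.54 (limma, adjusted p = 0.484). Without JH1 it was 1.82 (limma, adjusted p = 0.133), a larger value that was not called either.

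CYP2C42 and CYP2C91 ran the other way, being lower in every JH pig than in any LD pig. CYP2C42 read 0.408, 5.56 and 8.18 RPKM in JH1 to JH3 and 10.6, 30.8 and 28.9 RPKM in LD1 to LD3. JH1 rested on 5 reads, with a counting error of 44.7%, and LD1 stood below the other LD pigs. The means of 4.72 ± 3.95 and 23.4 ± 11.2 RPKM (SD, n = 3 each) gave a log2 fold change of -2.88 with an SE of 0.92 and an interval of -4.95 to -0.81, which was not called (limma, adjusted p = 0.149). Without JH1 the log2 fold change was -1.63 (limma, adjusted p = 0.165).

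By median level CYP2C91 was the lowest CYP2C gene of the set in both breeds, although CYP2C42 was lower in JH1. CYP2C91 read 0.653, 2.02 and 0.926 RPKM in JH and 3.36, 3.11 and 2.46 RPKM in LD, on 11 to 72 reads. RefSeq lists CYP2C91 as a transcribed pseudogene whose span overlaps that of CYP2C42 in Sscrofa11.1, so reads of the pair may be shared. Its means were 1.2 ± 0.725 and 2.98 ± 0.468 RPKM (SD, n = 3 each), and its log2 fold change was -1.37 with an SE of 0.41 and an interval of -2.29 to -0.46 (limma, adjusted p = 0.126). The level of CYP2C42 over that of CYP2C91 ran from 0.624 in JH1 to 11.8 in LD3, so that the pair did not keep 1 ratio over the libraries. Summed before the fit, the pair had a log2 fold change of -2.50 with an SE of 0.72 (limma, adjusted p = 0.116).

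A second locus bears on CYP2C33 as well. RefSeq gives the neighbouring LOC100739741 the synonym CYP2C33. It read 41.3, 67.8 and 95.9 RPKM in JH1 to JH3 and 108, 39.8 and 87.3 RPKM in LD1 to LD3, with overlapping ranges and a log2 fold change of -0.16 (limma, adjusted p = 0.88). Its sign turned without JH1, at 0.16, and without LD1, at 0.13. The level of CYP2C33 over that of this locus was 31.2, 18 and 11.7 in JH and 5.98, 13.7 and 7.28 in LD. Summed with it, CYP2C33 had means of 1279 ± 54.9 and 687 ± 89 RPKM (SD, n = 3 each) and a log2 fold change of 0.90 with an SE of 0.23 (limma, adjusted p = 0.0897).

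Of the other CYP2B, CYP2C, CYP2J and CYP3A symbols, CYP2C49 alone had values. It read 268, 568 and 694 RPKM in JH1 to JH3 and 145, 169 and 315 RPKM in LD1 to LD3. JH1 lay inside the LD range and the other JH pigs above it. The means were 510 ± 219 and 210 ± 91.8 RPKM (SD, n = 3 each), with a log2 fold change of 1.26 and an SE of 0.41 (limma, adjusted p = 0.163). CYP2C36, CYP3A22, CYP3A39 and CYP3A46 were listed at 0 in all 6 libraries, and RefSeq holds CYP3A39 as a synonym of CYP3A46.

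**Figure D2:**
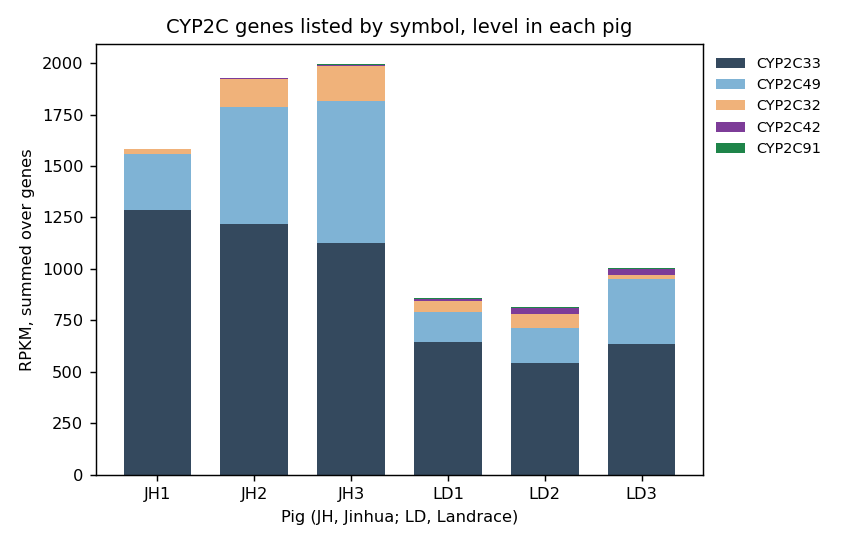
Stacked bars of RPKM (vertical axis from 0) of the 5 CYP2C genes listed by symbol that had values, in each of the 3 JH and 3 LD pigs. The stack reached 1584 to 1993 in JH and 816 to 1002 in LD, and CYP2C33 made up 56.4% to 81.3% of it in JH and 63.5% to 75% in LD.

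Among the JH pigs the CYP2C sum was highest in JH3, where CYP2C33 was lowest and CYP2C49 highest. CYP2C49 is no member. The 7 cytochrome members, with CYP3A29 at 0, summed to 1320, 1366 and 1309 RPKM in JH1 to JH3 and to 730, 668 and 706 RPKM in LD1 to LD3. CYP2C33 was 97.6%, 89.2% and 85.9% of the sum in JH and 88.2%, 81.6% and 90.1% in LD. Without CYP2C33 the breeds overlapped, at 32, 147 and 184 RPKM in JH and 85.8, 123 and 70 RPKM in LD. Of the whole sum, CYP2B22 was 0.228% to 0.465% in JH and 2.03% to 2.52% in LD. CYP2C42 was 0.0309% to 0.625% of it in JH and 1.45% to 4.6% in LD. These shares also fall as CYP2C33 rises, so they do not give the make-up of the remainder without CYP2C33.

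By median level, the order in JH was CYP2C33, CYP2C32, NR1I2, CYP2C42, CYP2B22, CYP2J34 and CYP2C91. In LD the last 2 changed places. In both breeds CYP2C33 stood clear of the next gene, CYP2C32 and NR1I2 overlapped, and NR1I2 stood clear of CYP2C42. CYP2C42 and CYP2B22 overlapped in both breeds. Below them, the JH ranges of neighbours in the order all overlapped, whereas in LD CYP2B22 stood clear of CYP2C91, which overlapped CYP2J34.

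CYP2J34, of the arachidonic acid epoxygenase subfamily, had the largest SE of the members on the log2(RPKM + 0.1) scale. It was listed at 0 in JH1 and read 2.8 and 3.61 RPKM in JH2 and JH3, against 0.729, 8.39 and 0.916 RPKM in LD1 to LD3. LD2 stood above all others, and JH2 and JH3 lay above LD1 and LD3. The values rest on 0, 21 and 27 reads in JH and 5, 64 and 7 reads in LD, and a 0 in JH1 allows up to 0.541 RPKM, the level of 3 reads (counting error only). The log2 fold change of -0.91, with an SE of 1.35 and an interval of -3.95 to 2.13 (limma, adjusted p = 0.767), turned to 0.77 without JH1 and to 0.16 without LD2. No direction can be given for CYP2J34 from these pigs.

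NR1I2, the gene of PXR, was read at 70.1, 57.8 and 44.3 RPKM in JH1 to JH3 and at 37.4, 43.8 and 38.1 RPKM in LD1 to LD3, on 798 to 1348 reads. The breeds did not overlap, but JH3 and LD2 lay next to each other. The means were 57.4 ± 12.9 RPKM in JH and 39.7 ± 3.53 RPKM in LD (SD, n = 3 each). The log2 fold change was 0.51 with an SE of 0.25 and an interval of -0.06 to 1.07 (limma, adjusted p = 0.33, exact permutation p = 0.1), and it ran from 0.35 to 0.68 with 1 library left out. GSK3B and COX17, which lie near it in the Sscrofa11.1 order, also had JH above LD in every pig without being called. GSK3B had a log2 fold change of 0.27 and COX17, a copper chaperone of cytochrome oxidase, of 0.99.

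**Figure D3:**
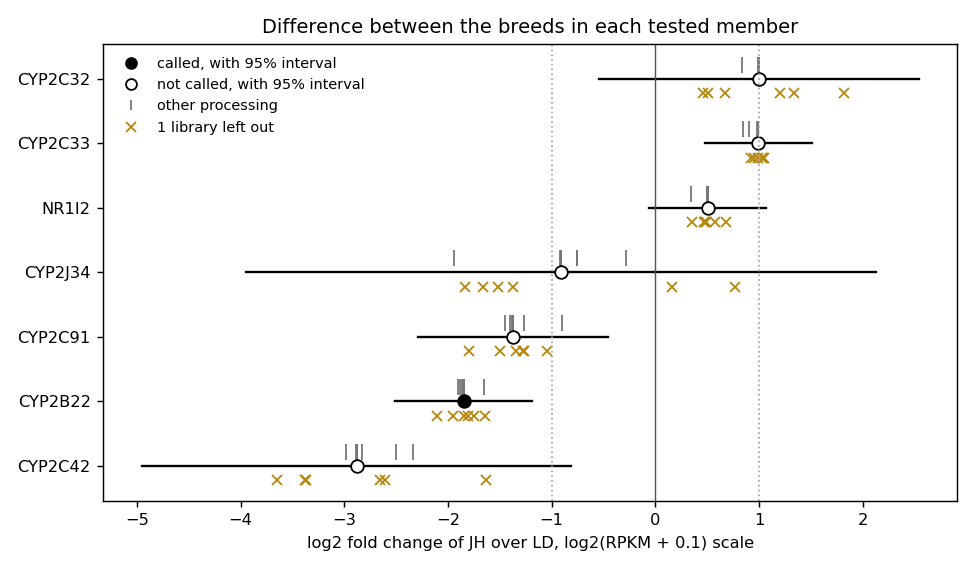
Log2 fold change of JH over LD on the log2(RPKM + 0.1) scale (horizontal axis) for the 7 tested members, as points with 95% intervals, filled where called, with ticks for other processing and crosses for fits without 1 library. CYP2B22 at -1.85 is the filled point, CYP2C33 at 0.99 has the narrowest interval, and the crosses of CYP2J34 lie on both sides of 0.

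JH1 stood at the lower edge of several members. It was the lowest of the JH pigs for 4 of the 7 tested members (CYP2C32, CYP2C42, CYP2C91 and CYP2J34). Over all tested genes JH1 was the lowest JH pig for 21.6%. It was the highest JH pig for CYP2C33 and NR1I2. The library of JH1 had the fewest reads, and its values deviated from the JH mean by an SD of 0.49 on the log2 scale over tested genes, against 0.48 and 0.49 in JH2 and JH3. The part of depth in these low values was not tested.

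CYP3A29 and POR could not be compared. CYP3A29, a CYP3A gene, and POR, the electron donor of all microsomal cytochromes P450, were listed at 0 RPKM in JH1, JH2, JH3, LD1, LD2 and LD3. Both lie on chromosome 3 in Sscrofa11.1. CYP3A29 was 1 of 13 genes in a row listed at 0, from TMEM225B through CYP3A22, CYP3A46, MYH11, NDE1 and PDXDC1 to RRN3. POR was 1 of 5, with STYXL1, TMEM120A, RHBDD2 and CCL24. Of 16630 genes that could be placed, 22.2% were listed at 0, but 51.4% were where the preceding gene was listed at 0 and 13.9% where it was not. A listed 0 thus came more often beside another in this gene order, and these rates do not set apart genes that are silent in liver. The runs around CYP3A29 and POR crossed genes of unrelated function, and a listed 0 gives no level of CYP3A29 or POR in these livers.

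**Figure D4:**
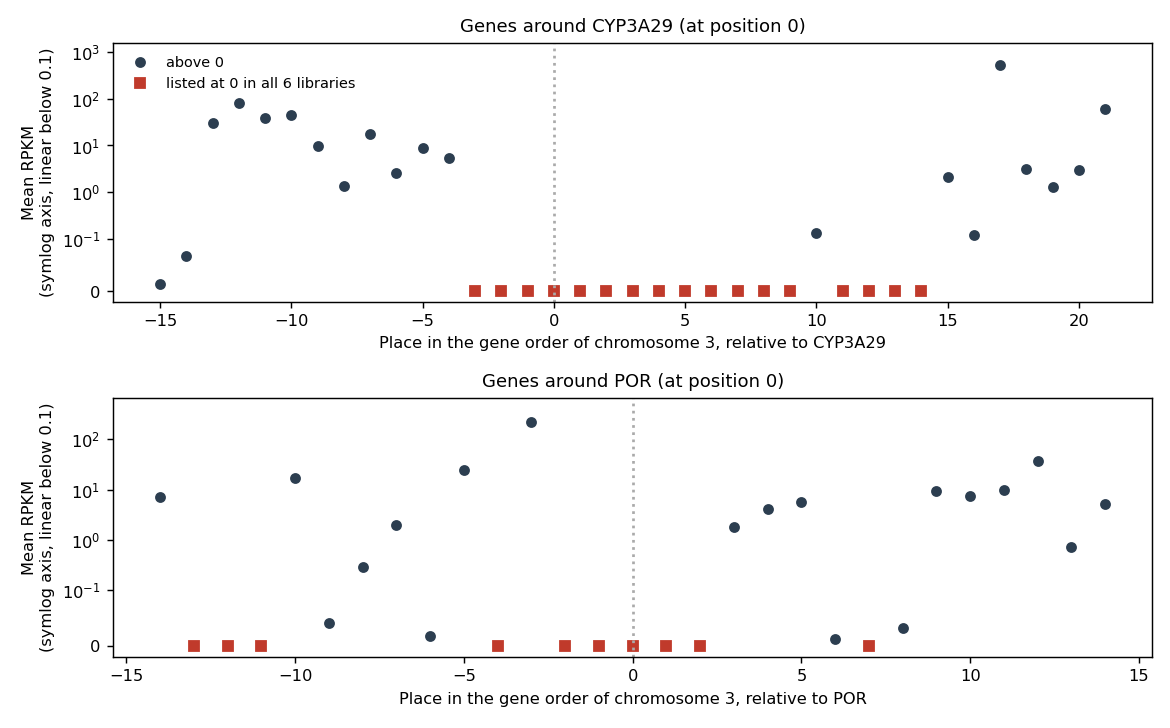
Mean RPKM over the 6 libraries (vertical axis, logarithmic above 0.1 and linear below) of the genes placed before and after CYP3A29 (top) and POR (bottom) on chromosome 3 in the Sscrofa11.1 order (horizontal axis, place relative to the named gene), with red squares for genes listed at 0 in every library. The squares form a run of 13 genes around CYP3A29 and of 5 around POR, and the genes next to both runs have values above 0. The gene after the CYP3A29 run, LOC102164141, lies at 0.133 RPKM only. Further squares stand beyond the runs in both panels, such as LOC100523238 after CYP3A29 and SRRM3 before POR.

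A list of electron supply and haem synthesis genes, which also holds PGRMC1, PGRMC2 and the epoxide hydrolases EPHX1 and EPHX2, had 14 tested genes. Limma called 0 in either direction, as did voom. Unadjusted p was below 0.05 for 1 higher (ALAS1) and 1 lower (EPHX2). Of the log2 fold changes 8 were above 0 and 6 below, with a median of 0.27. The largest value was that of ALAS1, the rate-limiting enzyme of hepatic haem synthesis and a known target of CAR and PXR. It read 621, 437 and 410 RPKM in JH1 to JH3 and 88, 182 and 300 RPKM in LD1 to LD3. Every JH pig lay above every LD pig, while the LD pigs differed by a factor of 3.41. The log2 fold change was 1.51 with an SE of 0.42 and was not called (limma, adjusted p = 0.106). EPHX2, the soluble hydrolase of epoxides made by CYP2C and CYP2J enzymes, read 87.4, 96.1 and 109 RPKM in JH and 186, 158 and 136 RPKM in LD, with a log2 fold change of -0.71 with an SE of 0.24 (limma, adjusted p = 0.165).

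Among 18 tested conjugation, transport and metabolic genes known as targets of CAR or PXR, 1 was called higher and 1 lower, and the median log2 fold change was 0.12. CPT1A, which admits fatty acids to mitochondria for oxidation, rose, at 165, 72.7 and 51 RPKM in JH and 15.8, 18.2 and 25.3 RPKM in LD. Its log2 fold change was 2.13 with an SE of 0.41 (limma, adjusted p = 0.037), and it was called without JH3 but not without any other 1 library, where the adjusted p reached 0.145. SCD, the desaturase that makes monounsaturated fatty acids, fell, at 6.48, 11.8 and 59.3 RPKM in JH and 185, 204 and 267 RPKM in LD. Its log2 fold change was -3.70 with an SE of 0.67 (limma, adjusted p = 0.0301), and the call was lost without JH2, LD1, LD2 or LD3, where the adjusted p reached 0.109. It was -3.03 without JH1 and -4.61 without JH3, called in both fits. Both are genes of fatty acid metabolism. At an unadjusted p below 0.05, 2 genes of this list were higher and 4 lower. The 2 higher were CPT1A and the transporter SLC13A5 at 1.39 (limma, adjusted p = 0.123), with every JH pig above every LD pig. The 4 lower were SCD, FASN at -2.55 (limma, adjusted p = 0.113) and the transporters SLCO2B1 and ABCC3. SLCO2B1 had -0.78 (limma, adjusted p = 0.139) and ABCC3 had -0.72 (limma, adjusted p = 0.192). FASN, SLCO2B1 and ABCC3 had every JH pig below every LD pig. These and SLC13A5 were named after their values were seen.

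The receptors' partners, chaperones and coregulators, 15 tested, had 0 calls in limma and in voom, and 1 higher and 2 lower at an unadjusted p below 0.05. Their median log2 fold change was -0.13. FOXO1, a coactivator of CAR and PXR, read 5.76, 2.7 and 4.63 RPKM in JH and 8.37, 9.24 and 9.31 RPKM in LD, with a log2 fold change of -1.09 with an SE of 0.30 (limma, adjusted p = 0.108). NCOA2, a coactivator of nuclear receptors, had -0.90 (limma, adjusted p = 0.166), with JH below LD in every pig. RXRA was not analysed here. Of 19 tested liver transcription factors that act upstream of CAR and PXR, 0 were called in limma or in voom, 2 were lower at an unadjusted p below 0.05, and the median was -0.01. THRA, a receptor of thyroid hormone, had -0.91 (limma, adjusted p = 0.152), with JH below LD in every pig.

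Of 10 other tested CYP1 to CYP4 genes, CYP2R1 was called higher and CYP2A19 lower, and the median log2 fold change was -0.77 with 7 below 0. CYP2A19, which clears skatole in pig liver, had the largest difference of the cytochromes read here. It read 235, 22.5 and 8.16 RPKM in JH1 to JH3 and 1758, 1270 and 1251 RPKM in LD1 to LD3. The JH pigs differed by a factor of 28.7 and all lay below the LD pigs. The log2 fold change was -5.32 with an SE of 0.97 (limma, adjusted p = 0.031), lost without JH2, LD1, LD2 or LD3 (adjusted p = 0.0861, 0.121, 0.0982 and 0.0721). It was -6.69 without JH1 and -4.27 without JH3, called in both fits. CYP2R1, a vitamin D hydroxylase, read 3.7, 3.71 and 2.62 RPKM in JH and 1.46, 1.2 and 1.01 RPKM in LD, on 17 to 61 reads. Its log2 fold change was 1.38 with an SE of 0.30 (limma, adjusted p = 0.048), and it was called without JH3 and in none of the other fits without 1 library, where the adjusted p reached 0.147. The paper also measured CYP2R1 by quantitative PCR and reports that the result differed from that of its sequencing. Voom called CYP2A19, not CYP2R1, and called 2 further genes, CYP4A21 lower and CYP4F2 higher, named for that reason.

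Many cytochromes are placed along the liver lobule, so genes of its zones were read as well. Of 8 tested perivenous genes, 1 was called lower, and the median was 0.07. It was GLUL, glutamine synthetase of the cells around the central vein, at 53.8, 42.1 and 72.7 RPKM in JH and 113, 194 and 135 RPKM in LD, with a log2 fold change of -1.39 with an SE of 0.30 (limma, adjusted p = 0.049), called without JH3 and lost without any other 1 library, at an adjusted p of up to 0.177. At an unadjusted p below 0.05, 2 perivenous genes were lower (GLUL and CYP2E1) and 2 higher (OAT and TBX3, at 0.91 and 0.97 with every JH pig above every LD pig), and voom called GLUL alone. The directions of the perivenous genes were thus mixed, and the part of lobule zones in the CYP2B22 difference was not tested. The 7 tested periportal genes had 0 calls in limma and in voom, 3 higher at an unadjusted p below 0.05, and a median of 0.48. SDS, a serine dehydratase, had 1.18 (adjusted p = 0.194) and ARG1, the arginase of the urea cycle, had 1.14 (adjusted p = 0.182 in limma).

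**Figure D5:**
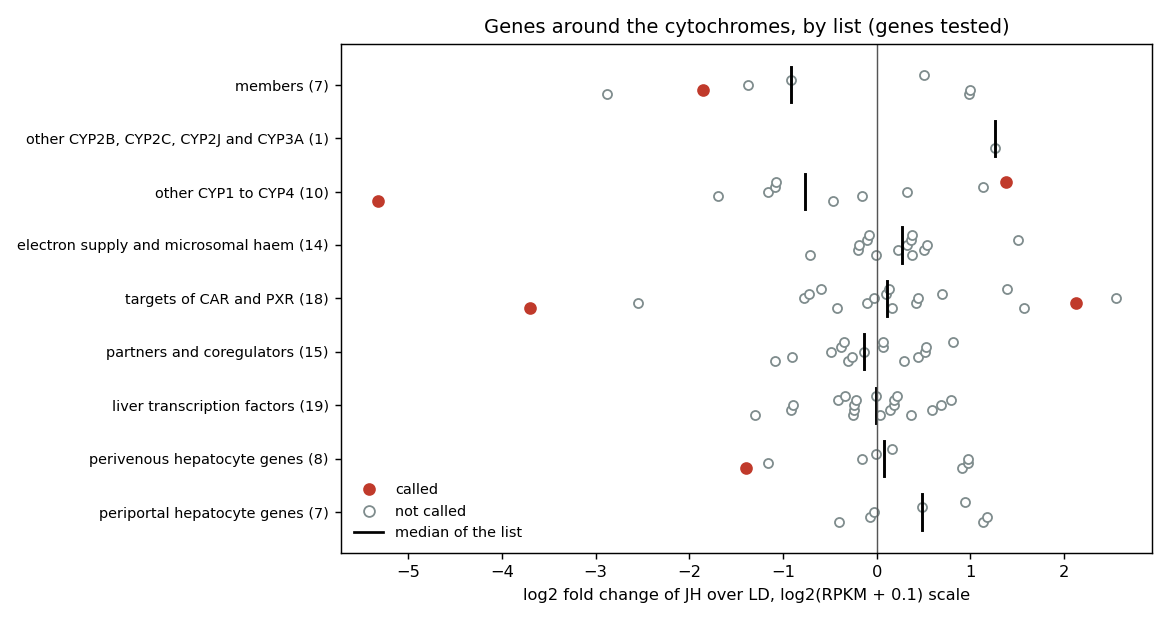
Log2 fold change of JH over LD on the log2(RPKM + 0.1) scale (horizontal axis) of every tested gene of the members and of 8 lists of related genes (rows, with the number tested), filled red where called and with a bar at the list's median. Called points are CYP2B22 among the members, CYP2A19 and CYP2R1 among other cytochromes, SCD and CPT1A among the receptor targets, and GLUL among the perivenous genes.

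Markers of other cell types were read in the same way. The tested markers of hepatocytes (8), macrophages (8), lymphocytes (10) and endothelium (8) had 0 calls in limma, with median log2 fold changes of -0.18, 0.10, 0.16 and -0.31. Voom also called 0, but it tested only 5 of the hepatocyte markers. ALB, APOA1 and TF had no recovered reads and were not in that fit. At an unadjusted p below 0.05, 1 hepatocyte marker was higher and 3 lower, 2 macrophage markers were higher, 0 lymphocyte markers differed and 2 endothelial markers were lower. All 8 endothelial markers were below 0, with KDR at -0.91 and PECAM1 at -0.81. TF and APOA1 had the largest hepatocyte values, at -1.13 and 0.90, C1QB and CSF1R the largest macrophage values, at 1.76 and 1.23, and GZMB and CD79B the largest lymphocyte values, at -1.56 and 0.70. GZMB was listed at 0 in JH1, and its log2 fold change was -0.04 without JH1. Of 4 tested bile duct markers EPCAM was called at -1.55, called again without JH3 only (limma, adjusted p up to 0.122 without another library), and 3 of the 4 were lower at an unadjusted p below 0.05, with a list median of -1.33. The 8 found summed to 92.3 to 247 RPKM in JH and 70.6 to 154 RPKM in LD, of which CLDN4 alone gave 85.3 to 235 RPKM in JH and 55.5 to 118 RPKM in LD. SOX9 and SPP1 had log2 fold changes of -2.07 and -1.11 and CLDN4 of 0.79. The part of bile duct cells in the members' differences was not tested. CDX2, the 1 tested gut marker, was called higher at 2.86 but lay at 0.806 to 1.27 RPKM in JH, was listed at 0 in LD3 and was called in none of the 3 fits without 1 library that could test it.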

How the data were processed

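The authors aligned 50 bp single reads to Sus scrofa 10.2 with Tophat 2.0.13 (named TopHat2 in the submitters' notes), counted genes with gfold and deposited RPKM values, 1 table per liver. The authors tested genes with DEGseq on read numbers. Here no deposited file holds counts, so limma 3.58.1 (R 4.3.3, lmFit, eBayes with trend) was fitted to log2(RPKM + 0.1) of genes with RPKM of at least 0.5 in at least 3 of the 6 libraries. The pseudocount understates changes of low genes. On simulated data of this design, 60, 107 and 171 of 200 genes changed by 1.5, 2 and 3 on the log2 scale were called among 12993, with 3, 4 and 8 false calls, and 0 were called with no change.

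Whole reads were recovered from the RPKM of 16794 of 19614 genes above 0. In simulated data, 5492 of 5507 genes with reads in 3 or more libraries were resolved, 5456 exactly. The 19614 genes above 0 include genes with values in fewer libraries, so the 2 shares are not alike. Reads are not independent molecules, so they bear on counting error only. Samples were grouped by their labels. No pairing of the pigs by the shared replicate numbers 1 to 3 is stated, and no block was used. Deviations from the breed means correlated at -0.02, 0.05 and 0.18 between pigs of equal number. The library medians of log2(RPKM + 0.1) were alike by number, at 2.36 in JH1 and 2.35 in LD1, 2.42 in JH2 and 2.39 in LD2, and 2.10 in JH3 and LD3. These values cannot tell whether the numbers mark a shared step. The 10 members and all lists were chosen with earlier results of these data known. Named were every member and relative found, called genes of each list or otherwise the 2 with the largest absolute change, and the 3 profiles nearest to a called member. Some genes this rule names are not reported here. The miRNA files were not used. Python 3.11.15 was used with matplotlib 3.10.9 for plots and with scipy 1.17.1, numpy 2.4.6 and pandas 2.3.3 for tables. Alternatives were other pseudocounts, filters and scalings, no trend, a replicate block, 1 library left out and, chosen after seeing the data, voom on recovered reads and summed relatives.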

Additional observations from a re-analysis of the deposited data

How the results depend on the processing

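CYP2B22 was called under every alternative with all 6 libraries, at -1.90 to -1.65, and no member changed direction under another pseudocount, filter or scaling. All called genes numbered 310, 133 of them higher in JH. They numbered 199 (83 higher, 116 lower) with a pseudocount of 0.01 and 200 (76 higher) without a filter, and 85 were higher without a variance trend. With the replicate number as a block, 2 members were called, CYP2C42 joining at -2.88 (limma, adjusted p = 0.0462), of 253 genes in all. The block took the SE of CYP2C42 from 0.92 to 0.48. What the numbers stand for is not stated, and whether they mark a shared step was not tested. Leaving out 1 library gave 63 (without LD1) to 403 (without JH3) called genes, 37 to 169 higher and 26 to 234 lower, and 0 to 2 members. In these fits CYP2B22 ran from -2.11 to -1.64, CYP2C33 from 0.92 to 1.05 and CYP2J34 from -1.84 to 0.77, with 0.16 without LD2. LOC100739741 ran from -0.59 to 0.16, being 0.13 without LD1. Such fits hold fewer samples, and an arm of 2 is assumed to vary like the other. 3 pigs per breed limit every test, and few reads lie behind CYP2J34, CYP2C91 and, in JH1, CYP2C42.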
